A study of Mus musculus with 18 samples.

Results

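DNA replication licensing and synthesis machinery is described here as 44 genes, each a row of the count table matched by its symbol, of 55450 genes in the table. ED1SQ4 is a murine lung cancer cell line derived from lung cancers of transgenic mice that overexpress cyclin E, so every group shares that origin and the 6 groups come from 1 cell line. CYC065 is an inhibitor of CDK2 and CDK9, the kinases that drive S phase entry and transcript elongation respectively. The groups were vehicle unsorted cells, CYC065 unsorted cells, vehicle 2N cells, CYC065 2N cells, vehicle 4N cells and CYC065 4N cells, with CYC065 given at 0.5 µM and both treatments lasting 72 hours. The 2N (diploid) and 4N (polyploid) cells were separated by DNA content after staining with Vybrant DyeCycle Green, and the unsorted cells are labelled as all cells. Such a gate reads DNA amount alone, so cells in G2 or mitosis of an ordinary cycle also lie in a 4N gate.

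The table holds 3 columns for each group. The sample titles call them replicates 1 to 3, while their library names differ only in a part number. They were taken as parts of 1 library. Over genes with whole counts, the variation among the 3 columns was 0.991 to 1.02 times that of Poisson sampling (chi-square over its degrees of freedom), close to sampling noise. Over whole-count genes of the module this ratio was 0.895 to 1.23. Over genes with fractional counts it was 4.35 to 7.6, so counting intervals can be too narrow for such genes. In the module these are Mcm7, Pcna, Rrm2 and Tyms. The 3 columns were counted as 1 sample. Each group is therefore n = 1, a comparison of 2 libraries allows no test, a fit across the unsorted, 2N and 4N settings was not run, and every interval below covers counting error only. Summed counts ran from 54750168 to 62795450 per library. All 44 genes had at least 30 counts in every library, and the lowest had 137. Levels are CPM, counts scaled to a common library size by the trimmed-mean (TMM) method. Because RNA was measured in bulk, fewer cells in S phase and less transcript per cell cannot be told apart.

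Replication begins with licensing, in which the origin recognition complex (ORC) with Cdc6 and Cdt1 loads the MCM2-7 helicase onto DNA in G1, while geminin (Gmnn) binds Cdt1 and prevents reloading after S phase starts. Firing follows when the Dbf4-dependent kinase Cdc7 and cyclin-dependent kinases bring Cdc45, the GINS complex and Mcm10 to the helicase. At the fork, RPA coats single strands, DNA polymerase alpha with primase starts each strand, the RFC clamp loader places PCNA, polymerases delta and epsilon extend, and Fen1 with Lig1 joins lagging-strand fragments. Ribonucleotide reductase, thymidylate synthase and thymidine kinase supply nucleotides. Many of these genes are known targets of E2F factors, which the retinoblastoma pathway holds back until cyclin-dependent kinases release them. The 44 genes comprised 15 for licensing, 8 for firing, 17 for the fork and 4 for nucleotide supply.

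Under CYC065 the module was lower in every setting. It took 0.386% of all counts in vehicle unsorted cells and 0.133% in CYC065 unsorted cells. In 2N cells the share was 0.535% with vehicle and 0.220% with CYC065. In 4N cells it was 0.512% and 0.271%. Of the 44 genes, 44 were lower with CYC065 in unsorted cells, 43 in 2N cells and 42 in 4N cells. Among all measured genes, 7144 of 14082 were lower in unsorted, 7009 of 14090 in 2N and 6843 of 14183 in 4N cells. The genes with the lowest ratios in unsorted cells were Prim1, Tk1, Gins1, Mcm10 and Rrm2, whereas Orc3, Cdt1, Cdc7, Rpa3 and Rfc1 stayed within 1.5-fold in all 3 settings.

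**Figure D1:**
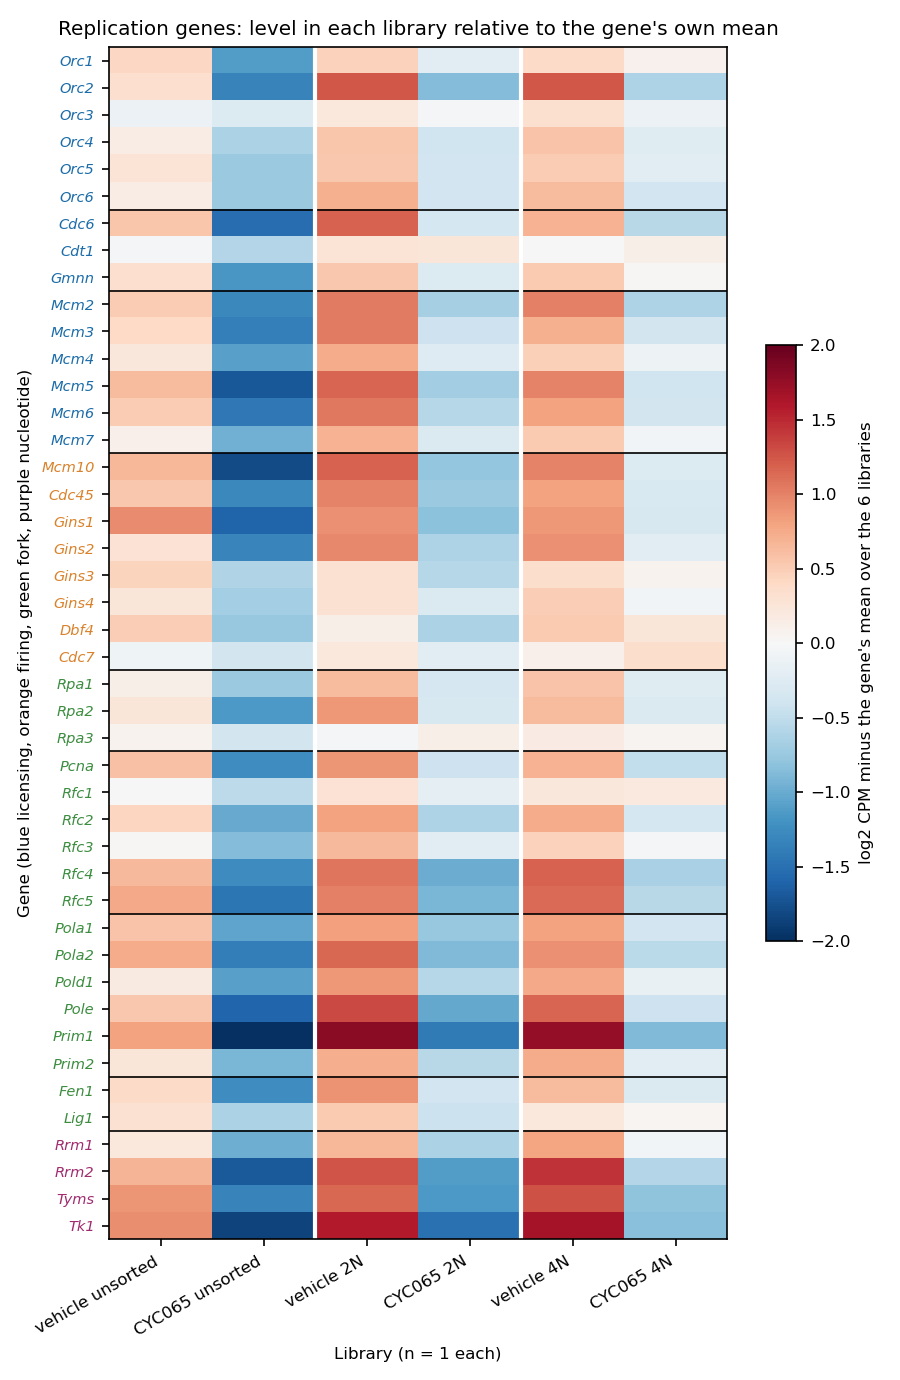
Levels of the 44 genes (rows, grouped by role, with lines between the 9 lists) in the 6 libraries (columns, n = 1 each), as log2 CPM minus each gene's own mean over the 6 libraries. The CYC065 unsorted library has the lowest values, with Prim1 at 5.29 CPM against 38.8 CPM in vehicle unsorted cells, while the rows of Orc3 and Rpa3 vary little.

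Promoter sequences were read for 36 of the 44 genes from RefSeq (GRCm38.p6), each spanning 250 bases before to 50 bases after the annotated start. No sequence was matched for Gins1, Gins2, Gins4, Pole, Mcm4, Rfc2, Prim2 and Gmnn. The 6 genes with a sequence that were lowest with CYC065 in unsorted cells are shown, because they carry the largest differences. Orc3 and Cdt1 are shown beside them, chosen after their values were seen, as the genes with an E2F-type octamer that differed least. Sequences run 5′ to 3′ on the gene's strand. Capitals mark CCAAT boxes and the octamers TTTCCCGC, TTTGGCGC, TTTCGCGC and TTTGCCGC on either strand. In Mcm5 an octamer on each strand overlaps the other, so they form 1 run of capitals.
Prim1 (chr10:128014965-128015264, plus strand): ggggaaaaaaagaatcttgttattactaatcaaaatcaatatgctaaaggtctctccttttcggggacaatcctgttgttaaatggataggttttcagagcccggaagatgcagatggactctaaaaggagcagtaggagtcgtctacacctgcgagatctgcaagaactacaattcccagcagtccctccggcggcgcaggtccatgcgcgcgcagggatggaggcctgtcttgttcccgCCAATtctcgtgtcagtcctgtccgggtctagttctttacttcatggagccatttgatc
Tk1 (chr11:117825965-117826264, minus strand): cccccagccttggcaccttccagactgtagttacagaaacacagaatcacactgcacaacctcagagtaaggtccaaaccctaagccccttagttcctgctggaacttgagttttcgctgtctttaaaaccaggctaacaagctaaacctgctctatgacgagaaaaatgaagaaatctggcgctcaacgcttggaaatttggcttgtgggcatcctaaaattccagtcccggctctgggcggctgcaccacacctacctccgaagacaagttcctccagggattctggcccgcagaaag
Mcm10 (chr2:5012742-5013041, minus strand): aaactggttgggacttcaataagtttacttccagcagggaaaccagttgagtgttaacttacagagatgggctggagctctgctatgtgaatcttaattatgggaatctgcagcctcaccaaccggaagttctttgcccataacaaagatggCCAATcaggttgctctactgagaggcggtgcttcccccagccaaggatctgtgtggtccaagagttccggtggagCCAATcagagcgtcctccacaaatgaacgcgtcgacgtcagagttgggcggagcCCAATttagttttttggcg
Rrm2 (chr12:24708004-24708303, plus strand): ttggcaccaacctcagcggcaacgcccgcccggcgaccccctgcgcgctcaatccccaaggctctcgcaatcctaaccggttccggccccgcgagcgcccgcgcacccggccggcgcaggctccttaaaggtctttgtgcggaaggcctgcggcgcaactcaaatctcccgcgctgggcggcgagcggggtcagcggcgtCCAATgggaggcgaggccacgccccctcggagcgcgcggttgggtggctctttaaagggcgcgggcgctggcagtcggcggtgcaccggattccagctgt
Mcm5 (chr8:75109259-75109558, plus strand): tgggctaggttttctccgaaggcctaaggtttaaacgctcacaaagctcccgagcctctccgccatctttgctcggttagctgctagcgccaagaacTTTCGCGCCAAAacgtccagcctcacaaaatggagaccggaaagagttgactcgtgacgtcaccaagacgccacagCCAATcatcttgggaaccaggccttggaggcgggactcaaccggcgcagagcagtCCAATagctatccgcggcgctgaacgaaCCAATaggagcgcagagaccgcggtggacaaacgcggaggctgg
Tyms (chr5:30073576-30073875, minus strand): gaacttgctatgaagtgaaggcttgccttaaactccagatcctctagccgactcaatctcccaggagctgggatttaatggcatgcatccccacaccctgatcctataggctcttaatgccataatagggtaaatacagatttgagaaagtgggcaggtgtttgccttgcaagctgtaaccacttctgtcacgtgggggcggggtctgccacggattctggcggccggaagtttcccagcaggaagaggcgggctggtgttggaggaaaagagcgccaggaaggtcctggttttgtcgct
Orc3 (chr4:34614893-34615192, minus strand): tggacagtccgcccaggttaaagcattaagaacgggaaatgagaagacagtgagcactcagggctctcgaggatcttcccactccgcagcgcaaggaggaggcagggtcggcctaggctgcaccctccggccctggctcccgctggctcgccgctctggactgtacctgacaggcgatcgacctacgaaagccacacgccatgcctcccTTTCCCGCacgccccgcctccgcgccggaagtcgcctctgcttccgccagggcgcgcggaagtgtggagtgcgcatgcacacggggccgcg
Cdt1 (chr8:122567765-122568064, plus strand): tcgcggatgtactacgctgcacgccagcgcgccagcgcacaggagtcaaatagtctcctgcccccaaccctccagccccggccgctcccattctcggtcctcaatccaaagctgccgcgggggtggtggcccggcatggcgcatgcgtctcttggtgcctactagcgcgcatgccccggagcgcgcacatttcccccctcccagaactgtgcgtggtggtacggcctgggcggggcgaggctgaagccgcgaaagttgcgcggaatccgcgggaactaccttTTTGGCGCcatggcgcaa

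An E2F-type octamer lay in 13 of 36 promoters of the module (36.1%) and in 472 of 10016 promoters of the other measured genes (4.71%). The CCAAT box lay in 22 of 36 (61.1%) against 43.6% of the others. The CHR element, searched as TTTGAA or TTCGAA on both strands, lay in 8 of 36 (22.2%) against 16.3%. By role, the octamer was found in 8 of 13 licensing promoters, 1 of 5 firing promoters, 4 of 14 fork promoters and none of 4 nucleotide promoters. Of the 6 lowest genes shown, Mcm5 alone held an octamer in this window, and Tk1 and Tyms held neither an octamer nor a CCAAT box. The median log2 ratio of CYC065 to vehicle in unsorted cells was -1.26 over the genes with an octamer and -1.67 over those without. With the window cut to the bases before the start, 9 of 36 promoters (25%) held one, and the medians lay close together, at -1.528 with and -1.625 without. These matches are letters in a window and say nothing about binding.

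The comparison of CYC065 with vehicle in unsorted cells asks how the drug changed the whole culture. The median log2 ratio over the module was -1.51, against -0.01 over 14082 measured genes. Of the 44 genes, 33 were lower beyond 2-fold, a mark that 12.6% of measured genes passed downward, and none was higher beyond 2-fold, as 12.6% of measured genes were. Beyond 1.5-fold, 39 were lower (24.2% of measured genes) and none was higher (22.6% of measured genes). The counting interval lay below 0 for all 44 genes, and its half-width was at most 0.27 on the log2 scale, for Gins1. The share of all measured genes with such an interval was not counted.

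In 2N cells the median log2 ratio of CYC065 to vehicle was -1.29, against 0.01 over 14090 measured genes. Lower beyond 2-fold were 27 of 44 genes (11.4% of measured genes), and 39 were lower beyond 1.5-fold (23.4%). No gene of the module was higher beyond 2-fold or 1.5-fold, where 16.2% and 26.2% of measured genes were. In 4N cells the median was -0.99, against 0.03 over 14183 measured genes, with 22 of 44 lower beyond 2-fold (10.1%) and 30 lower beyond 1.5-fold (21.4%). None was higher beyond either fold, where 15.5% and 26% of measured genes were.

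The genes that were low in every setting spanned all 4 roles. Lower beyond 2-fold in unsorted, 2N and 4N cells alike were 21 of the 44 genes, against 5.7% of measured genes. These were Orc2, Cdc6, Mcm2, Mcm3, Mcm5 and Mcm6 for licensing, Mcm10, Cdc45, Gins1 and Gins2 for firing, Pcna, Rfc2, Rfc4, Rfc5, Pola1, Pola2, Pole and Prim1 for the fork, and Rrm2, Tyms and Tk1 for nucleotides. Beyond 1.5-fold in each setting were 30 of 44, against 14.2% of measured genes.

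**Figure D2:**
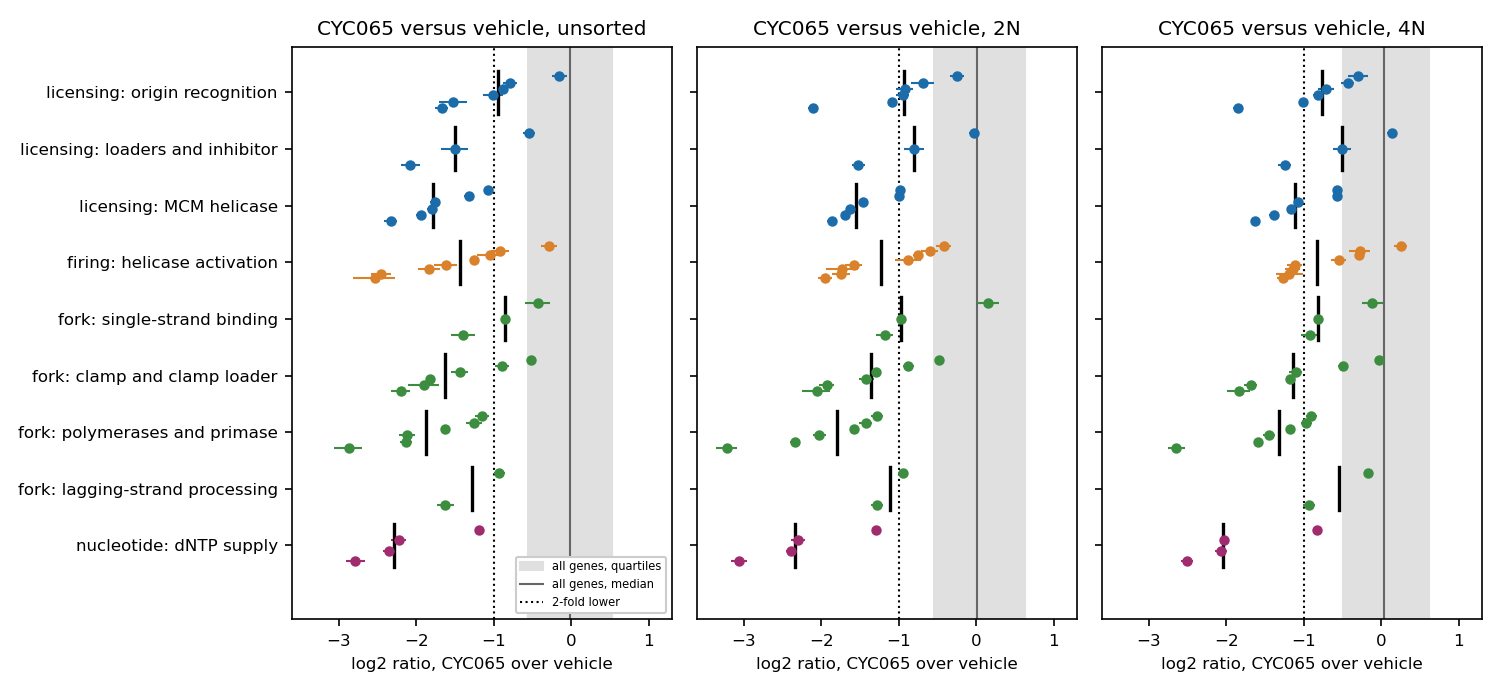
Log2 ratio of CYC065 to vehicle for each gene (points, with 95% counting intervals) by list in unsorted, 2N and 4N cells, with the list median (black bar), the median and quartiles of all measured genes (grey) and the 2-fold mark (dotted). The nucleotide list has the lowest median in each panel (-2.29, -2.34 and -2.05), and most points lie left of the grey band.

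Licensing genes were compared with fork and nucleotide genes because the former act before S phase and the latter within it. In unsorted cells the median log2 ratio of CYC065 to vehicle was -1.50 over the 15 licensing genes and -1.63 over the 21 fork and nucleotide genes, a difference of 0.12. In 2N cells the medians were -0.99 and -1.42, a difference of 0.42. In 4N cells they were -0.81 and -1.1, a difference of 0.29. With the 4 genes whose counts were fractional left out (Mcm7, Pcna, Rrm2 and Tyms), the difference turned to -0.10 in unsorted cells, 0.31 in 2N cells and 0.04 in 4N cells. The 4 nucleotide genes had the lowest median in every setting, -2.29 in unsorted, -2.34 in 2N and -2.05 in 4N cells. Within licensing, the MCM helicase list had a median of -1.78 in unsorted cells and the ORC list -0.95.

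Among the ORC subunits, which mark origins, Orc2 and Orc3 stood at opposite ends in unsorted and 2N cells. In 4N cells Orc1 differed least, at a log2 ratio of -0.30. Orc2 (chr1:58462771-58505109, minus strand) measured 94.7 CPM in vehicle unsorted, 29.7 in CYC065 unsorted, 177 in vehicle 2N, 41.0 in CYC065 2N, 177 in vehicle 4N and 48.9 in CYC065 4N cells. Its CYC065 libraries all lay below its vehicle libraries, with log2 ratios of -1.67 (95% counting interval -1.75 to -1.59) in unsorted, -2.11 (-2.18 to -2.05) in 2N and -1.85 (-1.91 to -1.80) in 4N cells. Orc3 (chr4:34570796-34614944, minus strand), whose promoter above holds an octamer, measured 30.4, 27.3, 38, 32.1, 41.0 and 30.4 CPM in the same order of libraries. The log2 ratios of Orc3 were -0.15 (-0.25 to -0.05), -0.24 (-0.33 to -0.15) and -0.43 (-0.52 to -0.35). Over all 5 comparisons its largest absolute log2 ratio, 0.43, was the smallest of the module, with Rpa3 next at nearly the same value.

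Orc1, the large ATPase subunit whose level is known to cycle, had a ratio that shrank from unsorted to 4N cells. Orc1 (chr4:108579423-108614833, plus strand) measured 17.7 CPM in vehicle unsorted, 6.15 in CYC065 unsorted, 18.3 in vehicle 2N, 11.3 in CYC065 2N, 17.4 in vehicle 4N and 14.1 in CYC065 4N cells. The log2 ratio of CYC065 to vehicle was -1.53 (-1.71 to -1.35) in unsorted, -0.69 (-0.84 to -0.55) in 2N and -0.30 (-0.43 to -0.17) in 4N cells. Orc4, Orc5 and Orc6 had ratios between -1.09 and -0.71 over the 3 settings.

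The helicase loaders and their inhibitor did not move as one. Cdc6 (chr11:98907801-98923940, plus strand), the ATPase that joins ORC in G1, measured 49.6 CPM in vehicle unsorted, 11.8 in CYC065 unsorted, 76.3 in vehicle 2N, 26.6 in CYC065 2N, 54.6 in vehicle 4N and 23.0 in CYC065 4N cells. Log2 ratios were -2.08 (-2.20 to -1.95) in unsorted, -1.52 (-1.61 to -1.44) in 2N and -1.25 (-1.34 to -1.16) in 4N cells. Every CYC065 library was below every vehicle library for Cdc6.

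Cdt1 (chr8:122568015-122573554, plus strand), the partner that brings MCM2-7 to ORC, measured 54.4 CPM in vehicle unsorted, 37.3 in CYC065 unsorted, 68.0 in vehicle 2N, 66.5 in CYC065 2N, 55.5 in vehicle 4N and 61.0 in CYC065 4N cells. Its vehicle and CYC065 levels overlapped, with log2 ratios of -0.54 (-0.63 to -0.46) in unsorted, -0.03 (-0.10 to 0.03) in 2N and 0.14 (0.07 to 0.20) in 4N cells, and the 2N value turned to 0.03 when libraries were scaled by size alone. Gmnn (chr13:24751845-24761923, minus strand), encoding geminin, measured 19.5, 6.89, 22.4, 12.8, 22.3 and 15.7 CPM in the same order. The log2 ratio of Gmnn was -1.50 (-1.68 to -1.33) in unsorted, -0.80 (-0.94 to -0.67) in 2N and -0.50 (-0.62 to -0.39) in 4N cells.

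Per kilobase of transcript, the ratio of Cdt1 to Gmnn within a library was thus higher with CYC065 in each setting. It was 1.43 (95% counting interval 1.34 to 1.53) in vehicle unsorted and 2.79 (2.49 to 3.11) in CYC065 unsorted cells. In 2N cells it was 1.56 (1.47 to 1.67) with vehicle and 2.68 (2.47 to 2.90) with CYC065. In 4N cells it was 1.28 (1.2 to 1.37) and 2.00 (1.87 to 2.14). A ratio within a library does not depend on how libraries were scaled, and it concerns transcripts, not the proteins, whose turnover is known to set the Cdt1 to geminin balance. The study also used ED1SQ4 cells carrying a FUCCI reporter vector that holds fragments of geminin and Cdt1. Whether the sequenced cells carried it is not given in the sources used here, and its part in these counts was not tested.

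All 6 MCM2-7 genes, which encode the ring helicase, were lower with CYC065 in each setting. Mcm5 (chr8:75109569-75128439, plus strand) measured 124 CPM in vehicle unsorted, 24.6 in CYC065 unsorted, 178 in vehicle 2N, 49.0 in CYC065 2N, 158 in vehicle 4N and 60.4 in CYC065 4N cells. The log2 ratios came to -2.33 (-2.41 to -2.24), -1.86 (-1.92 to -1.80) and -1.39 (-1.44 to -1.34) in unsorted, 2N and 4N cells. Mcm6 (chr1:128331590-128359664, minus strand) measured 206, 53.7, 300, 96.9, 252 and 112 CPM in the same order of libraries, with log2 ratios of -1.94 (-2.0 to -1.88), -1.63 (-1.68 to -1.59) and -1.17 (-1.21 to -1.13).

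Mcm2 differed from these in having nearly the same ratio in all settings. Mcm2 (chr6:88883474-88898780, minus strand) measured 155 CPM in vehicle unsorted, 44.5 in CYC065 unsorted, 223 in vehicle 2N, 68.6 in CYC065 2N, 218 in vehicle 4N and 70.6 in CYC065 4N cells, and its log2 ratios were -1.80 (-1.86 to -1.73), -1.70 (-1.75 to -1.65) and -1.63 (-1.68 to -1.58). Mcm4 and Mcm7 differed least in 4N cells, at -0.57 each. Of the Mcm7 transcript 50-mers, 18.1% are shared with other genes, most of all with Gm5487, so part of its count is uncertain.

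As a complex, MCM2-7 transcripts were less even with CYC065. The highest subunit exceeded the lowest by 1.94-fold per kilobase in vehicle unsorted, 1.97-fold in vehicle 2N and 1.89-fold in vehicle 4N cells. With CYC065 the spread was 4.07-fold, 3.25-fold and 3.13-fold, with Mcm7 highest and Mcm5 lowest each time. Part of the Mcm7 count is uncertain, so the size of these spreads and of the Mcm5 to Mcm7 ratio is uncertain too. Mcm3 was next highest with CYC065, at 19.5, 37.7 and 39.3 CPM per kilobase in unsorted, 2N and 4N cells. Mcm5 was at 7.29, 14.5 and 17.9. The Mcm5 to Mcm7 ratio was 0.588 (0.571 to 0.606) in vehicle unsorted and 0.246 (0.231 to 0.261) in CYC065 unsorted cells.

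The firing genes, which turn the loaded helicase into a working fork, had a median log2 ratio of -1.44 in unsorted, -1.23 in 2N and -0.83 in 4N cells. Mcm10 (chr2:4989714-5012791, minus strand), whose promoter above holds 3 CCAAT boxes, measured 56.9 CPM in vehicle unsorted, 10.4 in CYC065 unsorted, 81.0 in vehicle 2N, 21 in CYC065 2N, 71.6 in vehicle 4N and 29.8 in CYC065 4N cells. Its log2 ratios were -2.46 (-2.59 to -2.33), -1.95 (-2.04 to -1.86) and -1.26 (-1.34 to -1.19) in unsorted, 2N and 4N cells. Gins1 (chr2:150905400-150931280, plus strand), a GINS subunit, measured 14.9, 2.55, 14.5, 4.38, 14.1 and 6.18 CPM in the same order. The log2 ratios of Gins1 were -2.54 (-2.81 to -2.28), -1.73 (-1.94 to -1.52) and -1.18 (-1.36 to -1.01), and this gene had the fewest counts of the module.

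The kinase genes Dbf4 and Cdc7 are given in full after their values were seen. Dbf4 (chr5:8396973-8422716, minus strand), the activating subunit, measured 127 CPM in vehicle unsorted, 53.3 in CYC065 unsorted, 97.1 in vehicle 2N, 57.6 in CYC065 2N, 130 in vehicle 4N and 107 in CYC065 4N cells. Cdc7 (chr5:106964322-106984432, plus strand), the catalytic subunit, measured 30.4, 25, 37.6, 28.1, 34.8 and 41.3 CPM. For Cdc7 the CYC065 4N library was the highest of all 6, and its log2 ratio of CYC065 to vehicle was -0.28 (-0.39 to -0.18) in unsorted, -0.42 (-0.51 to -0.33) in 2N and 0.25 (0.17 to 0.33) in 4N cells.

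At the fork, the single-strand binding genes had some of the smaller differences. Rpa1 (chr11:75298166-75348324, minus strand), the large RPA subunit, measured 180 CPM in vehicle unsorted, 99.2 in CYC065 unsorted, 258 in vehicle 2N, 131 in CYC065 2N, 245 in vehicle 4N and 139 in CYC065 4N cells. Log2 ratios were -0.86 (-0.91 to -0.81), -0.97 (-1.01 to -0.93) and -0.81 (-0.85 to -0.78), just short of 2-fold in each setting. Rpa2 (chr4:132768332-132778752, plus strand), the middle subunit, measured 23.0, 8.75, 35.2, 15.5, 30.1 and 15.9 CPM, with log2 ratios of -1.39 (-1.55 to -1.24), -1.18 (-1.3 to -1.07) and -0.92 (-1.03 to -0.81). Rpa3, the small subunit, ranged from 10.2 to 14.9 CPM over the 6 libraries, and its vehicle and CYC065 levels overlapped. The Rpa3 to Rpa1 ratio per kilobase was higher with CYC065 in each setting, at 0.584 against 0.783 in unsorted, 0.378 against 0.823 in 2N and 0.460 against 0.746 in 4N cells (vehicle first).

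Pcna, encoding the sliding clamp, was the highest gene of the module per kilobase in all 6 libraries. Pcna (chr2:132249162-132253314, minus strand) measured 311 CPM in vehicle unsorted, 87.5 in CYC065 unsorted, 382 in vehicle 2N, 155 in CYC065 2N, 335 in vehicle 4N and 147 in CYC065 4N cells. The log2 ratios came to -1.83 (-1.88 to -1.78), -1.3 (-1.33 to -1.26) and -1.18 (-1.22 to -1.15). Of its transcript 50-mers, 19.1% are shared with other genes, most of all with Pcna-ps2, so these counts are uncertain by the reads that such copies could take.

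The clamp loader subunits were unequal. Rfc5 (chr5:117378103-117389047, minus strand) measured 57.4 CPM in vehicle unsorted, 12.5 in CYC065 unsorted, 68.3 in vehicle 2N, 17.9 in CYC065 2N, 74.6 in vehicle 4N and 23.2 in CYC065 4N cells, with log2 ratios of -2.20 (-2.33 to -2.08), -1.93 (-2.03 to -1.83) and -1.68 (-1.77 to -1.60). Rfc4 (chr16:23113943-23127737, minus strand) measured 17.6, 4.69, 23.4, 5.6, 25.5 and 7.11 CPM, with log2 ratios of -1.90 (-2.11 to -1.71), -2.06 (-2.24 to -1.89) and -1.84 (-1.99 to -1.69). By contrast Rfc1, the largest subunit, given after its values were seen, measured 170, 118, 207, 148, 198 and 194 CPM. Its 4N libraries were nearly equal, with a log2 ratio of -0.03 (-0.07 to 0.01) that turned to 0.05 when libraries were scaled by size alone. The highest RFC subunit exceeded the lowest by 4.23-fold per kilobase in vehicle unsorted and 7.38-fold in CYC065 unsorted cells.

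Prim1 had the largest difference of all 44 genes in each setting. Prim1 (chr10:128015168-128030037, plus strand), the catalytic primase subunit, measured 38.8 CPM in vehicle unsorted, 5.29 in CYC065 unsorted, 78.1 in vehicle 2N, 8.36 in CYC065 2N, 75.4 in vehicle 4N and 12.0 in CYC065 4N cells. The vehicle and CYC065 levels were far apart, with log2 ratios of -2.87 (-3.06 to -2.70) in unsorted, -3.22 (-3.36 to -3.09) in 2N and -2.65 (-2.76 to -2.54) in 4N cells, or 7.33-fold, 9.33-fold and 6.26-fold lower. Its partner Prim2, the regulatory subunit, had ratios of -1.15, -1.28 and -0.97.

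Within a library the Prim1 to Prim2 ratio per kilobase was therefore lower with CYC065. It was 0.787 (0.747 to 0.830) in vehicle unsorted and 0.238 (0.209 to 0.270) in CYC065 unsorted cells. In 2N cells it was 1.13 (1.09 to 1.181) and 0.295 (0.267 to 0.326), and in 4N cells 1.08 (1.04 to 1.12) and 0.337 (0.311 to 0.364). The 4 genes of polymerase alpha with primase lay within 1.3-fold of each other in vehicle unsorted and within 4.21-fold in CYC065 unsorted cells.

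Pole (chr5:110286306-110337474, plus strand), the catalytic subunit of the leading-strand polymerase epsilon, measured 128 CPM in vehicle unsorted, 29.2 in CYC065 unsorted, 220 in vehicle 2N, 43.5 in CYC065 2N, 198 in vehicle 4N and 66.0 in CYC065 4N cells. Its log2 ratios were -2.13 (-2.21 to -2.05), -2.34 (-2.40 to -2.27) and -1.59 (-1.64 to -1.54), the weakest of the 3 being in 4N cells. The lagging-strand genes differed from each other. Fen1 (chr19:10199132-10204169, minus strand), the flap endonuclease, measured 52.1, 16.9, 74.9, 30.8, 62.4 and 32.8 CPM, with log2 ratios of -1.63 (-1.73 to -1.52), -1.28 (-1.36 to -1.2) and -0.93 (-1.01 to -0.85). Lig1 (chr7:13277283-13311433, plus strand), the ligase that seals the fragments, measured 83.7, 44.1, 97.4, 50.5, 78.5 and 69.7 CPM. The Lig1 ratio was -0.93 (-1.0 to -0.85) in unsorted, -0.95 (-1.01 to -0.88) in 2N and -0.17 (-0.23 to -0.11) in 4N cells.

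The nucleotide genes of the module had the lowest medians of the roles. Tk1 (chr11:117815526-117826092, minus strand), the salvage kinase of S phase, measured 81.5 CPM in vehicle unsorted, 11.8 in CYC065 unsorted, 128 in vehicle 2N, 15.2 in CYC065 2N, 135 in vehicle 4N and 23.8 in CYC065 4N cells. Log2 ratios were -2.79 (-2.91 to -2.67), -3.06 (-3.17 to -2.96) and -2.51 (-2.59 to -2.43). Rrm2 (chr12:24708241-24714146, plus strand), the small ribonucleotide reductase subunit, measured 147, 28.6, 221, 42.2, 251 and 61.4 CPM, with log2 ratios of -2.35 (-2.43 to -2.28), -2.39 (-2.45 to -2.32) and -2.03 (-2.08 to -1.98). Each CYC065 library lay far below each vehicle library for both genes.

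The large reductase subunit Rrm1 differed less, with log2 ratios of -1.19, -1.29 and -0.84. The Rrm2 to Rrm1 ratio per kilobase was 0.952 (0.927 to 0.977) in vehicle unsorted and 0.424 (0.402 to 0.449) in CYC065 unsorted cells. It was 1.06 (1.03 to 1.08) and 0.493 (0.471 to 0.515) in 2N cells, and 1.1 (1.08 to 1.12) and 0.480 (0.463 to 0.497) in 4N cells. Tyms, the thymidylate synthase gene, ranged from 86.0 to 112 CPM with vehicle and from 18.4 to 26.8 CPM with CYC065.

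**Figure D3:**
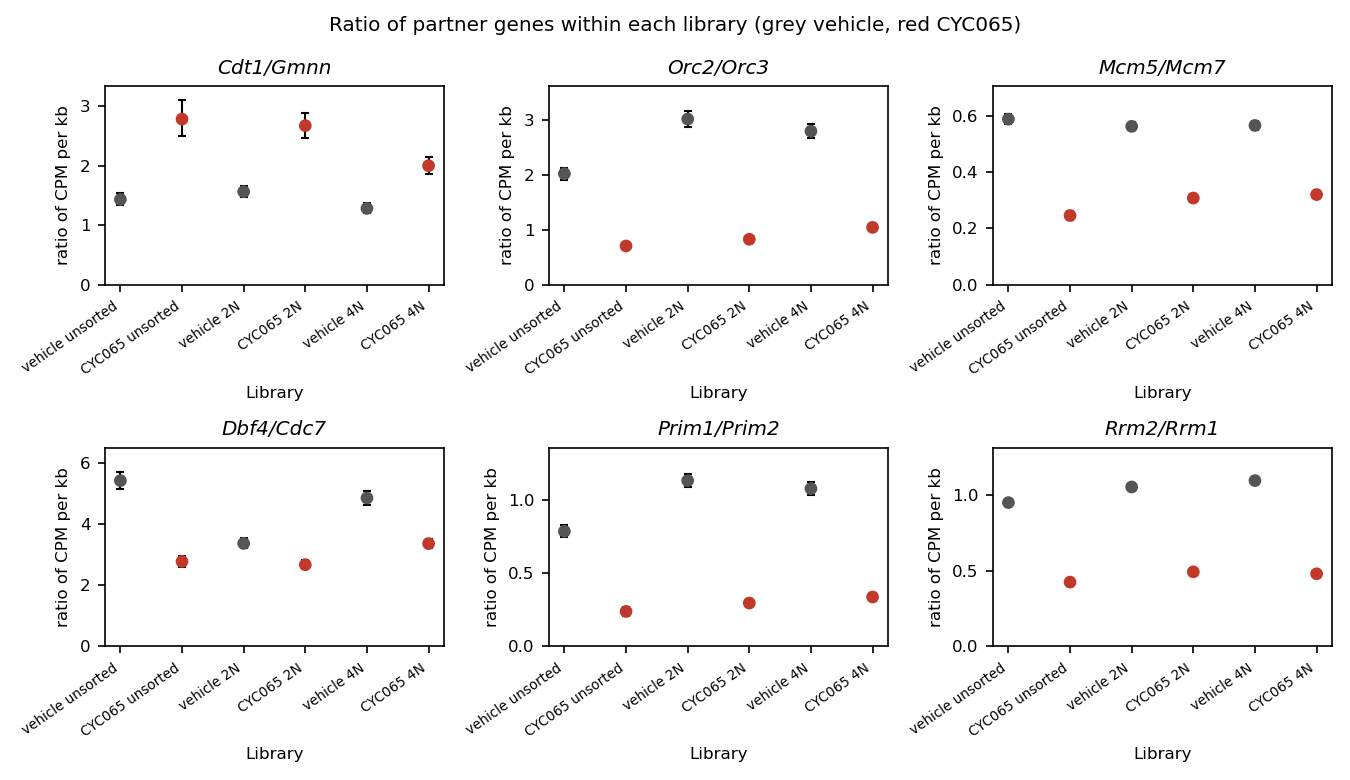
Ratio of CPM per kilobase between partner genes within each library (vehicle grey, CYC065 red, n = 1 each, bars are 95% counting intervals, linear axes from 0). Cdt1/Gmnn is higher with CYC065 in each setting (1.43 against 2.79 in unsorted cells), and the other 5 pairs shown are lower (Prim1/Prim2 0.787 against 0.238).

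By level per kilobase, the module stood high with vehicle and in the middle with CYC065. Its median was 24.7 CPM per kilobase in vehicle unsorted cells, above 76% of genes, and 8.10 in CYC065 unsorted cells, above 45.2%. In 2N cells the median was 31.3 with vehicle, above 79.9% of genes, and 12.1 with CYC065, above 57.5%. In 4N cells it was 27.2, above 76.8%, and 13.9, above 61.5%. Orc1 or Gins3 was the lowest gene in each library.

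The comparison of 4N with 2N cells asks whether the fractions sorted by DNA content differed within a treatment. These ratios use the same libraries as the drug comparisons in sorted cells, so the values are set side by side and not as independent results. With vehicle the median log2 ratio of 4N to 2N over the module was -0.06, against 0.00 over 13365 measured genes. No gene of the module differed beyond 2-fold in either direction, where 1.69% of measured genes were lower and 0.995% higher. None differed beyond 1.5-fold, where 5.4% were lower and 3.77% higher. The counting interval lay below 0 for 21 genes, above 0 for 10 and spanned 0 for 13. The same split was not counted over all measured genes.

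Within vehicle cells 12 of 15 licensing genes (median -0.08) and 13 of 17 fork genes (median -0.07) had 4N to 2N log2 ratios below 0. Of all 13365 measured genes, 6665 were below 0. The origin recognition genes were split, with 3 below and 3 above 0 (median -0.02). The 6 MCM2-7 genes were all below 0, from -0.33 for Mcm3 to -0.03 for Mcm2. Cdc6 had the lowest ratio, -0.48 (-0.55 to -0.42), and Cdt1 was at -0.29 (-0.36 to -0.23). The 4 nucleotide genes were all above 0, from 0.09 for Tk1 to 0.18 for Rrm2. Dbf4 had the highest ratio, 0.42 (0.37 to 0.47).

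With CYC065 the median log2 ratio of 4N to 2N was 0.31, against 0.00 over 14180 measured genes. Above 0 were 39 of 44 genes, and 7134 of the 14180 measured genes. Again no gene differed beyond 2-fold, where 2.08% of measured genes were lower and 1.48% higher. Beyond 1.5-fold none was lower (5.47% of measured genes), and 4 were higher (4.35%). These 4 were Dbf4 at 0.89 (0.83 to 0.95), Gins3 at 0.65, Tk1 at 0.64 (0.52 to 0.76) and Pole at 0.60 (0.53 to 0.67). The count of 4 became 2 without the third part of each library and at most 5 without another. Cdc6 at -0.21 (-0.31 to -0.11), Cdt1 at -0.12 (-0.19 to -0.06) and Pcna at -0.08 (-0.12 to -0.03) were lower in 4N cells with CYC065 too.

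The 4N to 2N log2 ratio was higher with CYC065 than with vehicle for 42 of 44 genes, against 50.9% of 14482 measured genes, and the median difference was 0.38 over the module and 0.01 over all genes. This difference is the same number as the drug's log2 ratio in 4N cells minus that in 2N cells. It was beyond 1.96 counting standard errors for 41 of 44 genes. The same share over all measured genes was not counted, and passing this mark depends on depth too, so no result about the module is read from it. By role the median was 0.57 for firing, 0.41 for nucleotides, 0.35 for the fork and 0.27 for licensing. Lig1 had the largest difference, 0.78 ± 0.04 (counting standard error), followed by Pole at 0.75 ± 0.04, and the 2 genes below 0 were Orc3 at -0.19 ± 0.06 and Rpa3 at -0.27 ± 0.10. Among the MCM2-7 genes Mcm2 was nearest to 0, at 0.07 ± 0.04, and Mcm5 and Mcm6 were at 0.47 each.

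**Figure D4:**
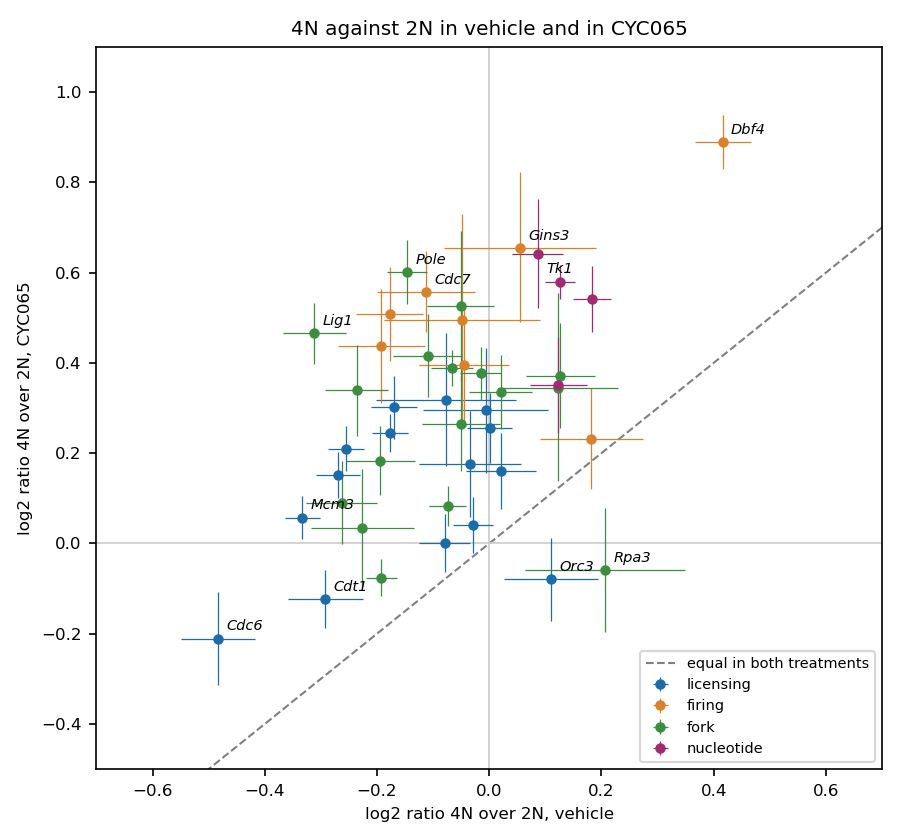
Log2 ratio of 4N to 2N with vehicle (x axis) against that with CYC065 (y axis) for the 44 genes, coloured by role, with 95% counting intervals and a dashed line of equal values. All points but Orc3 and Rpa3 lie above the line, and Dbf4 is highest on both axes (0.42 and 0.89).

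Licensing minus fork and nucleotide medians for 4N over 2N were -0.03 with vehicle and -0.19 with CYC065, opposite in sign to the differences between drug and vehicle over all members. With CYC065 the licensing median was 0.16 and the fork and nucleotide median 0.35. The loaders and inhibitor list had the lowest median of the 9 lists, -0.12, and the dNTP supply list the highest, 0.56.

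Genes expressed in G2 and mitosis were read beside these ratios, because both the gate and the drug could change the cycle phases present. The 10 genes of that list summed to 2166 CPM in vehicle unsorted, 732 in CYC065 unsorted, 2009 in vehicle 2N, 623 in CYC065 2N, 3113 in vehicle 4N and 1598 in CYC065 4N cells, and none was at 0. All 10 were lower beyond 2-fold with CYC065 in unsorted cells (12.6% of measured genes) and in 2N cells (11.4%). In 4N cells 4 of 10 were (10.1%). The median 4N to 2N log2 ratio of the list was 0.79 with vehicle and 1.28 with CYC065, against 0.00 over measured genes in each treatment. The part of cycle phase in the module's values was not tested.

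For most genes of the module the unsorted libraries did not lie between their sorted fractions. With vehicle, 38 of 44 genes were lower in unsorted cells than in both sorted libraries, against 43.5% of measured genes, and 6 were lower by more than 1.5-fold, against 6.84%. With CYC065, 44 of 44 were lower than in both, against 42.9%, and 18 by more than 1.5-fold, against 5.77%. Higher than in both were 2 of 44 with vehicle, against 41.8% of measured genes, and none with CYC065, against 38.8%. Lying outside the sorted libraries was thus common among all measured genes. The median level of the module in unsorted cells was 0.811 of the lower sorted level with vehicle and 0.696 with CYC065. Prim1, for example, was at 38.8 CPM in vehicle unsorted cells and at 78.1 and 75.4 CPM in the vehicle sorted libraries. Whether the unsorted cells were also stained is not given in the sources used here, and the part of staining and sorting in this was not tested.

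Other genes of replication, from lists made beside the module, had smaller medians in the same direction. Of 40 such genes, 27 were lower with CYC065 beyond 2-fold in unsorted cells, 27 in 2N cells and 15 in 4N cells. Of measured genes, 12.6%, 11.4% and 10.1% were lower beyond 2-fold in these settings. None of the 40 was higher beyond 1.5-fold, where 22.6%, 26.2% and 26% of measured genes were. The medians were -1.28, -1.25 and -0.88. Of 18 polymerase subunits and fork factors, 14 were lower beyond 2-fold in unsorted cells. Chtf18, of the alternative clamp loader, measured 50.1 CPM in vehicle unsorted and 9.93 in CYC065 unsorted cells, a log2 ratio of -2.33, and the PCNA-binding gene Pclaf measured 88.0 and 18 CPM, a ratio of -2.29. Of 10 licensing and firing factors, 5 were lower beyond 2-fold, with Recql4 at -1.81 and Ticrr at -1.31.

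Of 7 nucleotide enzymes, 3 were lower beyond 2-fold in unsorted cells, against 12.6% of measured genes. Their median log2 ratios of CYC065 to vehicle were -0.76 in unsorted, -0.92 in 2N and -0.64 in 4N cells. These were smaller differences than those of the module's nucleotide genes. Dck, the deoxycytidine kinase gene, was at -1.36, whereas the mitochondrial thymidine kinase gene Tk2, named after its value was seen, was at 0.16. All 5 genes of replication-coupled chromatin assembly were lower beyond 2-fold, with Asf1b at -2.04 and Uhrf1 at -2.02. For 4N over 2N with CYC065, 7 of the 40 genes were higher beyond 1.5-fold (4.35% of measured genes) and none was lower (5.47%).

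Marker genes were checked against the labelled tissue. All 8 epithelial genes were below 30 counts in 5 libraries and 7 of 8 in CYC065 4N cells, with sums of 0.429 to 1.44 CPM and Cldn7 at 0 in every library. Of 6 lung lineage genes, Foxa2 alone was measured, at 2.32 to 7.60 CPM, with Nkx2-1, Sftpa1 and Scgb1a1 at 0 in every library. The 5 fibroblast genes, Col1a1 among them, summed to between 6493 and 9617 CPM with vehicle and between 10442 and 18293 CPM with CYC065. The leukocyte list summed to 3.37 to 4.02 CPM with vehicle and 11.2 to 24.6 CPM with CYC065, almost all from Cd68, while Ptprc reached at most 0.015 CPM. The endothelial list summed to 0.532 to 1.87 CPM. The part of these lists in the module's values was not tested.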

How the data were processed

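RNA-Seq was measured in 18 deposited columns from ED1SQ4 cells, 3 columns for each of 6 groups, with ribosomal RNA depletion and a stranded total RNA kit. The authors used bcl2fastq for demultiplexing, Cutadapt 1.18 for trimming, STAR 2.7.0f in 2-pass mode for alignment (genome build mm10) and RSEM for quantification over GENCODE M21 genes. Release numbers for bcl2fastq and RSEM differ between the methods and the submitters' processing notes, which name bcl2fastq 2.17 and RSEM 1.3.1. The deposited values are expected counts per gene from RSEM, neither normalized nor filtered, and 9.66% of genes have a fractional value because reads shared between genes are split.

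The 3 columns of a group, titled as replicates but with part numbers in their library names, were taken as parts of 1 library. They were summed and rounded, giving 54750168 to 62795450 counts per library and n = 1. Counts were scaled with TMM (edgeR 4.0.16) over all 6 libraries. Log2 ratios used a prior count of 0.5. Genes with at least 30 summed counts in either library of a comparison were measured. Intervals are exact conditional binomial (Clopper-Pearson) at the 95% level and cover counting error only, since each group is 1 library. Reads carry no molecular identifiers, so the intervals count reads and not molecules. Intervals for ratios of partner genes use a normal approximation on the log scale. A difference was called by fold, beyond 2-fold or 1.5-fold, and no test was run. The procedure was run on simulated Poisson counts with a shared mean profile and 200 changed genes. Such counts hold no spread between cultures, so this checks the calculation only. Levels between genes are per kilobase of the longest principal transcript in GENCODE M21, and gene coordinates are from that annotation (mm10). Promoters came from RefSeq (GRCm38.p6).

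The members and lists were chosen with earlier results of these data known. Values in every library are given for the 2 genes of each of the 9 lists with the largest absolute ratio in unsorted cells, for the gene whose largest absolute ratio over the 5 comparisons was smallest, and for Cdt1, Gmnn, Cdc6, Pcna, Mcm2 and Rrm2. Outside these rules, Dbf4, Cdc7 and Rfc1 are given in every library after their values were seen. Chtf8, with 2 rows, was left out of the other replication genes. Values of 1 nucleotide enzyme gene are not reported here. Alternatives were size factors from DESeq2 1.42.0, library size alone, TMM within sorted and unsorted libraries, other count minimums, a prior count of 2, whole-count genes alone and leaving out each part. Python 3.11.15, NumPy 2.4.6, SciPy 1.17.1 and R 4.3.3 were used.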

Additional observations from a re-analysis of the deposited data

Results flagged for a closer look

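For 27 genes of the module the 4N to 2N log2 ratio was below 0 with vehicle and above 0 with CYC065, and for the 15 given here both counting intervals also lay clear of 0. The share of all measured genes with such a change of sign was not counted, so these counts have no base rate beside them. With 1 library in each group the difference between the 2 treatments was not tested, and the counting intervals do not cover variation between cultures. Among the helicase genes, the ratio with CYC065 minus that with vehicle was 0.39 for Mcm3, 0.421 for Mcm4, 0.471 for Mcm5, 0.465 for Mcm6 and 0.421 for Mcm7. Among the firing genes it was 0.685 for Mcm10, 0.629 for Cdc45 and 0.669 for Cdc7. Among the fork genes it was 0.157 for Rpa1, 0.455 for Rfc1, 0.378 for Rfc3, 0.575 for Pola2, 0.525 for Pold1, 0.748 for Pole and 0.777 for Lig1. For Cdc7 the log2 ratio of CYC065 to vehicle was also of opposite sign in the sorted fractions, -0.42 in 2N and 0.25 in 4N cells. That difference of 0.669 is the same number and was not tested either.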

How the results depend on the processing

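No paired analysis was possible by replicate number because each group holds 1 library and those numbers in the labels mark parts of it. A fit of treatment with the unsorted, 2N and 4N settings as blocks was not run. Scaled by library size alone, the median log2 ratio of CYC065 to vehicle over the 44 genes was -1.62 in unsorted and -0.91 in 4N cells, while the median over all measured genes shifted to -0.12 and 0.11. With whole-count genes alone, the licensing minus fork and nucleotide difference reversed to -0.10 in unsorted cells and moved to 0.31 in 2N and 0.038 in 4N cells, by leaving out Mcm7, Pcna, Rrm2 and Tyms. Leaving out each part in turn, the number of genes higher beyond 1.5-fold in 4N than 2N cells with CYC065 ranged from 2 to 5. The signs of Gmnn and Pola1 (4N to 2N with vehicle, at -0.01 and -0.02) changed under library size and under DESeq2 size factors. The sign of Orc6 (4N to 2N with CYC065, at 0.00) changed under DESeq2 size factors, and those of Cdt1 in 2N and Rfc1 in 4N cells (CYC065 to vehicle) under library size. Depth limits Gins1 most, with a half-width of 0.27 on the log2 scale, but the unmeasured spread between cultures limits every value.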
